A study of Mus musculus with 8 samples.

Results

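Glycolysis and the response to low oxygen were examined in osteoblastic cells (OBCs), the bone-forming cells, through 35 genes chosen by symbol among the 17068 genes of a deposited expression table. The L-OBCs were taken from the long bones of C57BL/6J females of about 10 weeks that bore B-cell acute lymphoblastic leukemia (B-ALL) driven by BCR-ABL, the fusion kinase, and the C-OBCs came from healthy females of the same strain and age. There were 4 libraries per group, made by RNA-seq with the SMART-Seq v4 kit from cells sorted after collagenase digestion. The sources used here state neither how the leukemia was started nor whether each library came from its own animal. The p-values therefore reflect the spread between libraries alone, and that spread may be technical. All 35 symbols were found in the table. They were read as 24 genes of glycolysis (4 transporters, 17 enzymes and 3 regulators of flux) and 11 genes of the hypoxia response (4 of oxygen sensing and 7 targets outside glycolysis). Levels are given in FPKM, fragments scaled to transcript length and library total, so genes can be set side by side.

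Glycolysis splits glucose into pyruvate and yields ATP without oxygen. Osteoblasts are known as cells that take up glucose avidly and release much of it as lactate, and bone marrow is known as a tissue of low oxygen. Oxygen is read by prolyl hydroxylases (the Egln genes), which mark HIF-alpha proteins (Hif1a, Epas1) for destruction while oxygen is present. When oxygen falls, the stabilised HIF proteins pair with Arnt and raise transcription of glucose transporters, most glycolytic enzymes, Vegfa, Bnip3 and other targets. This control acts mainly on HIF protein, so the transcript of Hif1a does not by itself report HIF activity.

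HIF binds DNA at the core motif ACGTG or GCGTG. The starts of 32 of the 35 members (46 annotated starts) were found in the RefSeq promoter table for GRCm38.p6, and the 250 bases before each start were searched for both motifs on both strands. At least 1 match was found before 1 or more starts of 29 of the 32 members (90.6%), and 20 (62.5%) had 2 or more. Over all tested genes with an entry, 5561 of 9013 (61.7%) had a match and 27.7% had 2 or more. No match was found in the windows of Eno2, Gpi1 and Tpi1. The sequence CACGTG holds ACGTG on both strands and is counted once, and it was present in 6 members (18.8%), against 9.96% of all tested genes with an entry. A match describes letters in a window and is no evidence of binding. Windows of 4 members are printed because they stand for the cases described below. Ldha is a final-step enzyme, Pgk1 a mid-pathway enzyme and Hk2 the enzyme with the lowest p-value. Ankrd37 is the hypoxia target with the highest positive fold change among those tested. The windows run 5′ to 3′ on the strand of the gene and end at the base before the start, with motif matches in capitals. They lie at chr7:46845554-46845803 (plus strand), chrX:106186850-106187099 (plus strand), chr6:82774455-82774704 (minus strand) and chr8:45999851-46000100 (minus strand).
Ldha: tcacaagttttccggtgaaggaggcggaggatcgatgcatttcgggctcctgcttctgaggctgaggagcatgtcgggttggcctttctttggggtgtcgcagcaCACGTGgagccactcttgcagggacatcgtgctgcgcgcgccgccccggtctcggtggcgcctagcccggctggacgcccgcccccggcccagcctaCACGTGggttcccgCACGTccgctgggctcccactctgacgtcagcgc
Pgk1: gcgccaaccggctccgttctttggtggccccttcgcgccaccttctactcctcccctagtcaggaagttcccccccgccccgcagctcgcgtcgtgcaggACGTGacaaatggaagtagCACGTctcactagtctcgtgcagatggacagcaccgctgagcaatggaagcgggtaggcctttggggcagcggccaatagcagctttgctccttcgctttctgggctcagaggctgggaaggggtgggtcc
Hk2: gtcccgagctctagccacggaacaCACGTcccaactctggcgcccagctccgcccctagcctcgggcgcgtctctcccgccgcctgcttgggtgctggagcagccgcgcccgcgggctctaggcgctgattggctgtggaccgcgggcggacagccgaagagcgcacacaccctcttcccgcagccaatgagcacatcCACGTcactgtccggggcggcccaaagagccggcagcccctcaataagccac
Ankrd37: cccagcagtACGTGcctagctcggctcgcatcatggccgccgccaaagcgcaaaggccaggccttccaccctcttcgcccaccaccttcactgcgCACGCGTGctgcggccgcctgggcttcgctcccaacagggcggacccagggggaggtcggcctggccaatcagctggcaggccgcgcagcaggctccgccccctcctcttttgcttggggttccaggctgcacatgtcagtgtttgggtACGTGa
The Ldha window held 3 separate matches, of which 2 were CACGTG. For each gene the annotated start with the most matches was printed. The window of the other Ldha start held 1 match and no CACGTG. The Ldha and Ankrd37 windows lie inside the gene spans given below. The Ankrd37 window held 3 matches, one of them a run in which GCGTG lies on both strands, and the windows of Pgk1 and Hk2 held 2 each.

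The label of the cells was checked against marker genes. Of 8 osteoblast markers, 6 were above 100 FPKM in all 8 libraries, and Col1a1 averaged 6275 ± 2972 FPKM in L-OBCs and 7880 ± 1051 FPKM in C-OBCs (SD, n = 4 each). Of 6 cartilage markers, 4 were also above 100 FPKM in all libraries. Col2a1, the main collagen of cartilage, averaged 6293 ± 3777 FPKM in L-OBCs and 6354 ± 1061 FPKM in C-OBCs, near the means of Col1a1. The 6 cartilage markers summed to 4216 to 17483 FPKM in L-OBCs and 9388 to 12933 FPKM in C-OBCs. The 8 osteoblast markers summed to more, 44181 to 77616 FPKM in L-OBCs and 44468 to 89593 FPKM in C-OBCs. By limma log2 fold change, 7 of these 8 leaned lower in L-OBCs and 1 higher (median -0.16). Col1a2 stood at -0.60 (limma adjusted p = 0.695). Cartilage markers leaned lower for 5 and higher for 1. Of 4 osteocyte markers tested, 3 leaned lower and 1 higher. All L-OBC libraries lay below all C-OBC libraries in Phex (-0.92, limma adjusted p = 0.444). The 4 skeletal muscle markers tested leaned higher (median 0.24). None of these passed an adjusted p of 0.05. Endothelial markers were nearly absent, with a summed level of 0.9 to 1.66 FPKM over 6 genes in L-OBCs and 0.86 to 1.89 FPKM in C-OBCs. The 10 myeloid markers summed to 58.7 to 155 FPKM in L-OBCs and 60.9 to 75 FPKM in C-OBCs. Of 4 myeloid markers tested, 1 leaned higher in L-OBCs and 3 lower (median -0.31). Lyz2, lysozyme, was the highest of the 10 in all libraries, at 82.9 ± 34.0 FPKM in L-OBCs and 43.0 ± 5.57 FPKM in C-OBCs. It was the 1 that leaned higher (log2 fold change 0.83, limma adjusted p = 0.695). Those that leaned lower were Cd68 (-0.33), S100a8 (-0.55) and S100a9 (-0.29). The other 6 markers were not tested, among them the general leukocyte gene Ptprc, under 1 FPKM in all libraries. The 10 B-lineage markers summed to at most 53.3 FPKM in L-OBCs and 41.1 FPKM in C-OBCs, and 5 of them were listed at 0 in at least 4 libraries. Ebf1 made up most of that sum, at 22.0 ± 10.9 FPKM in L-OBCs and 27.4 ± 10.6 FPKM in C-OBCs. The pre-B cell receptor genes were low, with Vpreb1 at 2.22 ± 1.83 FPKM in L-OBCs and 0.292 ± 0.219 FPKM in C-OBCs and Igll1 at 1.54 ± 1.77 FPKM in L-OBCs and 0.125 ± 0.250 FPKM in C-OBCs. Blnk, a B-cell adaptor, had a log2 fold change of 0.71 (limma adjusted p = 0.695). The part of myeloid and B-lineage transcripts in the results was not tested. The 7 erythroid markers ranged most, from 3.71 to 1449 FPKM in L-OBCs and from 22.2 to 646 FPKM in C-OBCs. Summed FPKM ran from 456191 to 632055 in L-OBCs and from 477127 to 500933 in C-OBCs, and read depth is unknown because the table holds no counts.

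No glycolysis or hypoxia gene of the 34 tested passed the test between L-OBCs and C-OBCs. Of the 35 members, 34 reached 1 FPKM in at least 4 libraries and were tested, and 0 of them passed an adjusted p of 0.05 by limma (Benjamini-Hochberg over the 11214 genes tested), where 0.0% passed. At an unadjusted p under 0.05, 0 of the 34 members were called, against 6.62% of all genes (279 higher and 463 lower). In 0 of the 34 did the groups fail to overlap, against 3.85% of all genes. The lowest adjusted p among members was 0.695. In a bulk sample, fewer cells of a type and less RNA per cell cannot be told apart.

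Of the 24 glycolysis genes, 15 had a positive and 9 a negative log2 fold change, with a median of 0.05 against -0.02 over all genes tested. The fold changes ran from -0.42 to 0.30 in log2(FPKM + 1), a scale that shrinks differences of low genes. All 24 limma 95% intervals lay inside -1 and 1, that is, inside a doubling or halving on this scale, and 75.7% of all tested genes had such an interval. Intervals inside a 1.5-fold change (0.58 in log2) were found for 10 of the 24, against 25% of all genes. Among the hypoxia genes 10 were tested, 7 positive and 3 negative, with a median of 0.11, and 5 of the 10 intervals lay inside -1 and 1. An interval inside a 1.5-fold change was found for 1 of the 10. The hypoxia median was -0.02 when totals were rescaled to TPM, 0.27 without L-OBC library 1 and -0.01 without L-OBC library 3. The median glycolysis value was -0.08 when totals were rescaled to TPM, a setting under which the median of all genes stood at -0.146, and -0.04 without C-OBC library 3.

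**Figure D1:**
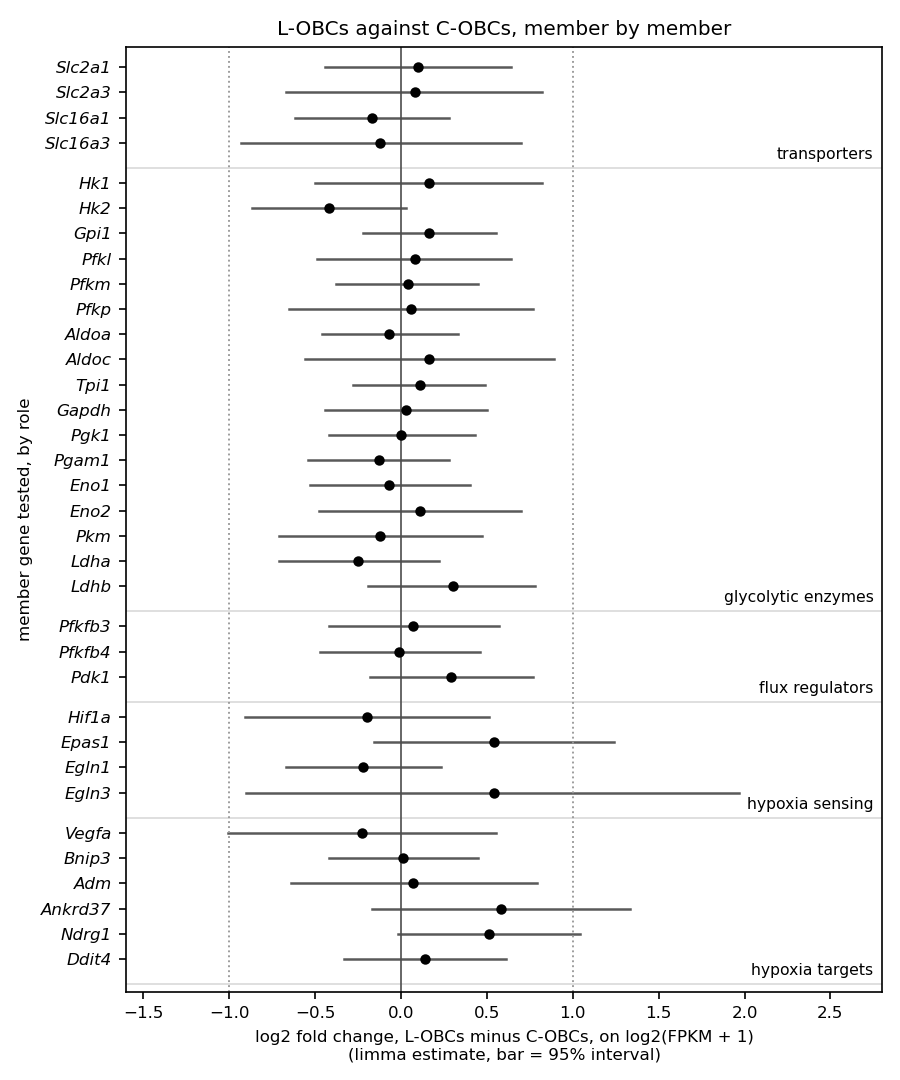
Limma log2 fold change of L-OBCs minus C-OBCs for the 34 members tested (x axis, log2(FPKM + 1) scale; points are estimates, bars 95% intervals, dotted lines a doubling and a halving), grouped by role down the y axis. Every interval crosses 0, and those of Vegfa, Epas1, Egln3, Ankrd37 and Ndrg1 pass a dotted line.

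Glucose enters through Slc2a1 (GLUT1), the chief glucose transporter of osteoblasts, and Slc2a3 (GLUT3), a carrier of higher affinity. Slc2a1 (gene ID 20525, chromosome 4, 119108745 to 119137330, GRCm38.p6) stood at 64.16, 41.90, 79.52 and 82.82 FPKM in L-OBC libraries 1 to 4 and at 58.50, 73.95, 46.68 and 65.99 FPKM in C-OBC libraries 1 to 4. The L-OBCs held both the highest and the lowest library, and the groups overlapped (log2 fold change 0.10, 95% interval -0.44 to 0.64). Slc2a3 was lower per length, at 8.99 ± 3.13 FPKM in L-OBCs and 8.60 ± 3.79 FPKM in C-OBCs (SD, n = 4 each). It made up 12.6% ± 6.72 of the summed FPKM of both carriers in L-OBCs and 12.9% ± 7.10 in C-OBCs, and its share was highest in L-OBC library 2 (22.3%) and C-OBC library 3 (22.6%). Lactate leaves through Slc16a3 (MCT4) and passes either way through Slc16a1 (MCT1). Slc16a3 (80879, chromosome 11, 120948484 to 120959000) stood at 33.49, 16.39, 54.02 and 61.25 FPKM in L-OBCs and at 49.14, 41.87, 29.33 and 42.36 FPKM in C-OBCs. Its spread was widest among the transporters, with L-OBC library 4 at 3.74 times library 2 of the same group. Its log2 fold change was -0.12 (95% interval -0.93 to 0.70), with the other sign without L-OBC library 2 (0.26). Slc16a1 averaged 18.7 ± 2.78 FPKM in L-OBCs and 21.3 ± 5.08 FPKM in C-OBCs.

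**Figure D2:**
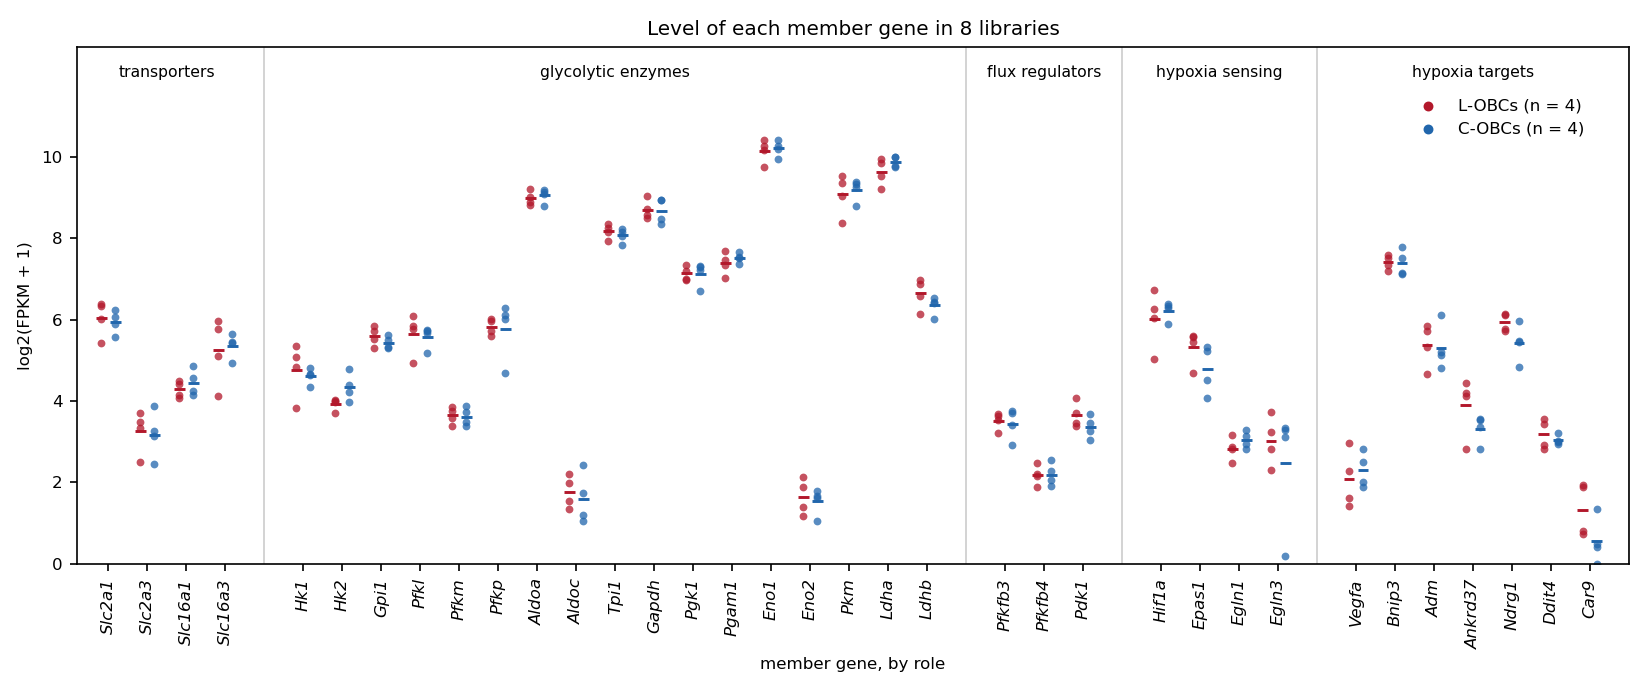
Level of all 35 members as log2(FPKM + 1) (y axis) by gene and role (x axis), with 1 point per library, a bar at the group mean, and L-OBCs (n = 4) left of C-OBCs (n = 4). Eno1, Ldha, Pkm and Aldoa lead in both groups, the groups overlap in every gene, and Egln3 has 1 C-OBC library near 0.

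Hexokinase, which traps glucose in the cell as glucose 6-phosphate, was represented by the constitutive Hk1 and by Hk2, the inducible form that HIF is known to raise. Hk2 (15277, chromosome 6, 82725025 to 82774454) stood at 12.10, 14.95, 14.83 and 15.28 FPKM in L-OBCs and at 14.81, 17.67, 26.76 and 20.02 FPKM in C-OBCs. All L-OBC libraries except library 1 lay between the lowest and the next C-OBC library, and the overlap rests on C-OBC library 1. Its log2 fold change of -0.42 (SE 0.20, 95% interval -0.87 to 0.03) had the lowest p of the 24 glycolysis genes (limma adjusted p = 0.695). Over the alternatives the fold change ran from -0.56 with totals rescaled to TPM to -0.27 without C-OBC library 3. Hk1 averaged 28.3 ± 11.1 FPKM in L-OBCs and 23.6 ± 3.12 FPKM in C-OBCs. Hk2 therefore held 27.0, 53.0, 35 and 27.9% of the summed hexokinase FPKM in L-OBC libraries 1 to 4 and 35.5, 42.1, 58.0 and 45.8% in C-OBC libraries 1 to 4. These shares overlapped and are given with no test.

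Gpi1, which turns glucose 6-phosphate into fructose 6-phosphate, averaged 47.9 ± 7.55 FPKM in L-OBCs and 42.5 ± 4.52 FPKM in C-OBCs (SD, n = 4 each). Phosphofructokinase, the main control point, was split between the liver-type Pfkl, the platelet-type Pfkp and the muscle-type Pfkm. Pfkp held 47.5% ± 4.15 of the summed phosphofructokinase FPKM in L-OBCs and 48.2% ± 13.4 in C-OBCs. Pfkl held 42.3% ± 6.6 in L-OBCs and 41.9% ± 12.9 in C-OBCs, and Pfkm 10.2% ± 3.43 in L-OBCs and 9.87% ± 1.68 in C-OBCs. C-OBC library 3 departed from this, with Pfkp at 24.77 FPKM and 28.5% of the sum, while the other C-OBC libraries ran from 63.49 to 76.41 FPKM. The log2 fold change of Pfkp was 0.06 with all libraries and -0.30 without that library. Pfkfb3 and Pfkfb4, which make and remove fructose 2,6-bisphosphate, the activator of phosphofructokinase, averaged 10.5 ± 1.59 and 3.59 ± 0.751 FPKM in L-OBCs, against 10.1 ± 2.74 and 3.63 ± 0.901 FPKM in C-OBCs.

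**Figure D3:**
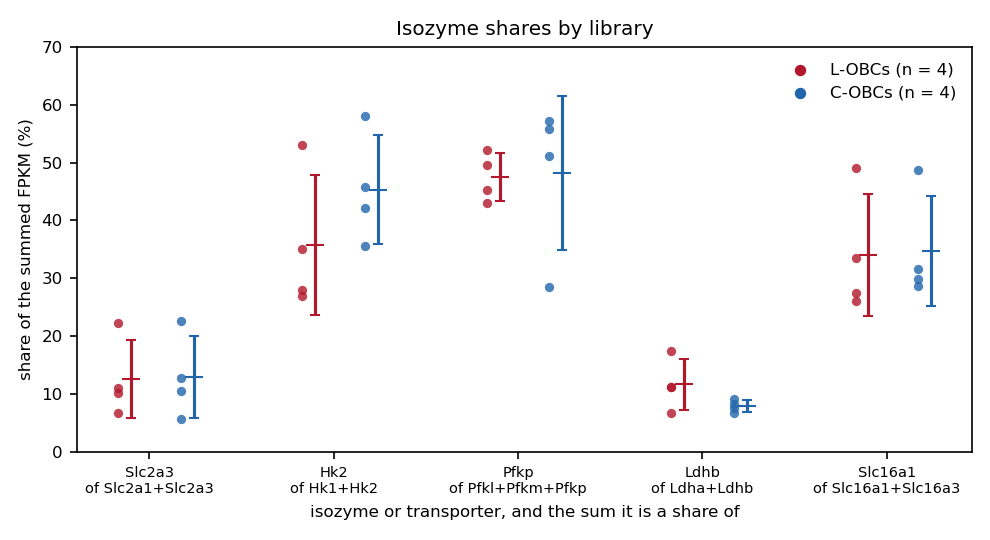
Share of 1 isozyme or transporter in the summed FPKM of its step (y axis, percent; x axis, gene and sum), with 1 point per library and the mean ± SD beside the points, L-OBCs (n = 4) left of C-OBCs (n = 4). Shares overlap between the groups, and Slc2a3, Hk2 and Slc16a1 are highest in 1 library of each group, L-OBC library 2 and C-OBC library 3.

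The later enzymes were among the most abundant transcripts of the cells. Eno1, which encodes the main enolase (13806, chromosome 4, 150236708 to 150248879), ranked first of the 35 with a mean over the 8 libraries above 99.7% of the genes in the table. It stood at 1140.60, 853.33, 1225.41 and 1358.83 FPKM in L-OBCs and at 1176.69, 1228.22, 988.09 and 1368.72 FPKM in C-OBCs. L-OBC library 2 lay below all C-OBC libraries, C-OBC library 4 was highest, and the other L-OBC libraries lay within the range of the C-OBCs (log2 fold change -0.07, 95% interval -0.53 to 0.40). Eno1b, a copy that shares 87.9% of its 31-base subsequences with Eno1, was listed at 0.30 FPKM or less. Pkm, pyruvate kinase (18746, chromosome 9, 59656576 to 59679372), averaged 562 ± 175 FPKM in L-OBCs and 592 ± 101 FPKM in C-OBCs. Aldoa, the main aldolase, averaged 508 ± 60.9 FPKM in L-OBCs and 533 ± 63.2 FPKM in C-OBCs, a log2 fold change of -0.07 (95% interval -0.46 to 0.33). Gapdh, often used as a reference transcript, stood at 418.49, 377.21, 526.01 and 361.16 FPKM in L-OBCs and at 490.46, 487.98, 322.77 and 354.08 FPKM in C-OBCs. It thus varied 1.63-fold between libraries while it averaged 421 ± 74.2 FPKM in L-OBCs and 414 ± 88.0 FPKM in C-OBCs.

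Tpi1, which interconverts the triose phosphates, averaged 291 ± 35.8 FPKM in L-OBCs and 269 ± 31.1 FPKM in C-OBCs. Pgk1, the first ATP-yielding enzyme (18655, chromosome X, 106187100 to 106203699), had a log2 fold change of 0.00 (95% interval -0.42 to 0.43) at 140.4 ± 17.2 FPKM in L-OBCs and 141 ± 25.9 FPKM in C-OBCs. Pgam1, phosphoglycerate mutase, averaged 168 ± 32.0 FPKM in L-OBCs and 182 ± 15.8 FPKM in C-OBCs. The minor isozymes Aldoc and Eno2 stayed low, at 2.5 ± 0.968 and 2.25 ± 0.983 FPKM in L-OBCs and 2.27 ± 1.52 and 1.96 ± 0.608 FPKM in C-OBCs. Aldoc made up under 1% of the summed aldolase FPKM and Eno2 under 0.3% of the summed enolase FPKM in all 8 libraries. Of the 35 members, 6 lie on chromosome 6 and 5 on chromosome 7. Eno2 (124760053 to 124769673), Tpi1 (124810586 to 124814158) and Gapdh (125161852 to 125166467) lie near each other on chromosome 6, and their levels differed more than 100-fold between Eno2 and Gapdh.

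At the lactate dehydrogenase step, Ldha, whose subunit favours lactate formation and which is a known HIF target, exceeded Ldhb in all libraries. Ldha (16828, chromosome 7, 46842274 to 46855627) stood at 742.82, 592.92, 926.50 and 979.83 FPKM in L-OBCs and at 1023.92, 1018.62, 864.61 and 880.98 FPKM in C-OBCs. L-OBC libraries 1 and 2 lay below all C-OBC libraries and L-OBC libraries 3 and 4 lay within their range (log2 fold change -0.25, 95% interval -0.71 to 0.22). Ldhb (16832, chromosome 6, 142490249 to 142507957) stood at 94.16, 125.62, 116.62 and 69.62 FPKM in L-OBCs and at 84.34, 90.98, 85.79 and 63.64 FPKM in C-OBCs. L-OBC libraries 1 to 3 lay above all C-OBC libraries and library 4 did not (log2 fold change 0.30, SE 0.22, 95% interval -0.19 to 0.78, limma adjusted p = 0.727). Ldhb made up 11.2, 17.5, 11.2 and 6.63% of the sum of both in L-OBC libraries 1 to 4 and 7.61, 8.20, 9.03 and 6.74% in C-OBC libraries 1 to 4. Library 4 of each group therefore had nearly the same share. Without L-OBC libraries 1 and 2 the Ldha value was 0.01 and the Ldhb value 0.16. Those libraries were the richest in short transcripts, with a Spearman rho between transcript length and the deviation of a gene from its mean of -0.356 and -0.369, against -0.107 to 0.353 in the other 6 (across genes, which are not independent replicates). With the length trend removed, Ldhb stood at 0.15 and Ldha at -0.24. Over the alternatives Ldhb ran from 0.15 to 0.46 and Ldha from -0.38 to 0.01.

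Pyruvate dehydrogenase kinase, of which Pdk1 is the classic HIF target, phosphorylates pyruvate dehydrogenase in the mitochondrial matrix and so limits the conversion of pyruvate to acetyl-CoA. Pdk1 (228026, chromosome 2, 71873215 to 71903858) stood at 9.48, 10.07, 12.09 and 15.70 FPKM in L-OBCs and at 10.05, 11.92, 7.25 and 8.53 FPKM in C-OBCs. The highest libraries were L-OBC 3 and 4 and the lowest C-OBC 3 and 4, with overlap in between (log2 fold change 0.29, SE 0.21, 95% interval -0.18 to 0.77). The value was 0.16 without L-OBC library 4, 0.19 without C-OBC library 3 and 0.52 without L-OBC libraries 1 and 2.

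Among the sensing genes, the HIF-alpha transcripts differed in sign. Hif1a (15251, chromosome 12, 73901324 to 73947554) stood at 64.56, 31.73, 76.06 and 105.64 FPKM in L-OBCs and at 77.08, 57.93, 79.27 and 83.15 FPKM in C-OBCs. The L-OBCs again held the lowest library (2) and the highest (4), and the log2 fold change of -0.20 (95% interval -0.91 to 0.51) was 0.12 without L-OBC library 2. Epas1, which encodes HIF-2 alpha (13819, chromosome 17, 86753864 to 86833410), stood at 24.75, 47.45, 46.24 and 42.77 FPKM in L-OBCs and at 36.58, 21.82, 39.12 and 15.77 FPKM in C-OBCs. L-OBC libraries 2 to 4 lay above all C-OBC libraries, and L-OBC library 1 lay below C-OBC libraries 1 and 3. Its log2 fold change was 0.54 (SE 0.31, 95% interval -0.16 to 1.24, limma adjusted p = 0.696). Over the alternatives the fold change ran from 0.30 without C-OBC library 4 to 0.75 without L-OBC library 1. Per length, Hif1a exceeded Epas1 in all libraries except L-OBC library 2.

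The prolyl hydroxylases stood at single digits of FPKM in most libraries. Egln1, the main oxygen sensor (112405, chromosome 8, 124908587 to 124949254), averaged 6.22 ± 1.38 FPKM in L-OBCs and 7.36 ± 1.17 FPKM in C-OBCs. Egln3, itself a HIF target (112407, chromosome 12, 54178981 to 54203874), stood at 3.94, 12.36, 8.39 and 6.01 FPKM in L-OBCs and at 8.77, 9.06, 0.15 and 7.72 FPKM in C-OBCs. C-OBC library 3 stood apart from all others, and the log2 fold change of 0.54 (95% interval -0.90 to 1.97) was -0.23 without it.

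The targets outside glycolysis were led by Bnip3, a mitochondrial protein of mitophagy (12176, chromosome 7, 138890836 to 138909506). It stood at 145.19, 161.32, 190.77 and 180.72 FPKM in L-OBCs and at 141.62, 182.67, 137.83 and 218.09 FPKM in C-OBCs, with means of 169.5 ± 20.3 FPKM in L-OBCs and 170.1 ± 37.9 FPKM in C-OBCs. All L-OBC libraries lay inside the range of the C-OBCs (log2 fold change 0.01, 95% interval -0.42 to 0.45). Ndrg1, a stress and differentiation gene raised by hypoxia (17988, chromosome 15, 66929318 to 66969641), stood at 53.91, 52.10, 68.47 and 68.96 FPKM in L-OBCs and at 61.39, 43.49, 27.44 and 42.42 FPKM in C-OBCs. Only C-OBC library 1 reached into the range of the L-OBCs. Its log2 fold change of 0.51 (SE 0.24, 95% interval -0.02 to 1.04) had the lowest p of all members (limma adjusted p = 0.695). Over the alternatives the fold change ran from 0.31 without C-OBC library 3 to 0.70 without L-OBC libraries 1 and 2. Ankrd37, an ankyrin-repeat gene known as a HIF target (654824, chromosome 8, 45996908 to 46000414), stood at 16.56, 20.56, 17.27 and 6.11 FPKM in L-OBCs and at 10.77, 10.60, 9.27 and 6.08 FPKM in C-OBCs. L-OBC libraries 1 to 3 lay above all C-OBC libraries, and library 4 of both groups was lowest and nearly equal. Its log2 fold change of 0.58 (SE 0.34, 95% interval -0.17 to 1.33, limma adjusted p = 0.697) was 0.93 without L-OBC library 4 (adjusted p = 0.0845), and over all alternatives the adjusted p ran from 0.0845 to 0.984. With the length trend removed it was 0.08.

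Other targets showed no common direction. Adm, the vasodilator peptide adrenomedullin, averaged 42.8 ± 14.2 FPKM in L-OBCs and 41.2 ± 18.2 FPKM in C-OBCs (SD, n = 4 each). Ddit4 (REDD1), an inhibitor of mTORC1, averaged 8.29 ± 2.35 FPKM in L-OBCs and 7.25 ± 0.695 FPKM in C-OBCs. Vegfa, the angiogenic growth factor, stood at 1.68, 6.84, 3.87 and 2.09 FPKM in L-OBCs and at 3.05, 6.07, 4.68 and 2.70 FPKM in C-OBCs, and its lowest and highest libraries were both L-OBCs (log2 fold change -0.23, 95% interval -1.01 to 0.55). That value ran from -0.53 without L-OBC library 2 to -0.01 without L-OBC library 1 when each library was left out in turn. Car9, a carbonic anhydrase and a marker of hypoxic cells (230099, chromosome 4, 43507026 to 43513729), was the lowest member and was not tested. It was listed at 0.66, 0.74, 2.67 and 2.8 FPKM in L-OBCs and at 1.56, 0.32, 0 and 0.41 FPKM in C-OBCs, so that L-OBC libraries 3 and 4 were highest and C-OBC library 1 exceeded the other L-OBCs.

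The libraries of each group differed among themselves. Of the 24 glycolysis genes, 10 were lowest in L-OBC library 2 and 9 in C-OBC library 3, whereas these libraries were lowest in 19.3% and 13.8% of all genes tested. L-OBC library 4 was highest for 9 of the 24, against 13.3% of all genes. The 17 enzymes summed to 4193, 3394, 4910.4 and 4949.7 FPKM in L-OBC libraries 1 to 4 and to 4842, 4915, 3816 and 4655 FPKM in C-OBC libraries 1 to 4. As a share of the FPKM total of the library, the enzymes made up 0.826% ± 0.238 in L-OBCs and 0.927% ± 0.108 in C-OBCs. The low libraries of the enzymes were not low in all members. L-OBC library 2 had the highest value of Epas1, Egln3, Vegfa, Ankrd37 and Ldhb, and C-OBC library 3 the highest of Hk2, Adm, Egln1, Slc2a3, Slc16a1 and Aldoc.

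Marker transcripts also differed between the libraries, and not always in the direction of the enzymes. Averaged over the 17 enzymes, the deviation of log2(FPKM + 1) from the mean of the 8 libraries was 0.04, -0.28, 0.11 and 0.14 in L-OBC libraries 1 to 4 and 0.10, 0.06, -0.17 and -0.01 in C-OBC libraries 1 to 4. The 6 cartilage markers deviated by 0.68, -1.42, -0.09 and 0.22 in L-OBCs and by -0.20, 0.39, 0.12 and 0.29 in C-OBCs, and so were lowest in L-OBC library 2 as well. Their sum was 4216 FPKM in that library and 9388 to 17483 FPKM in the other 7. The 8 osteoblast markers deviated most in C-OBC library 3, by 0.43, whereas the enzymes stood at -0.17 in that library. Erythroid, myeloid and B-lineage markers were highest in L-OBC library 2, at sums of 1449, 155 and 53.3 FPKM. Osteocyte markers were highest in C-OBC library 3, at a sum of 713 FPKM. The part of these marker transcripts in the levels of the members was not tested.

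**Figure D4:**
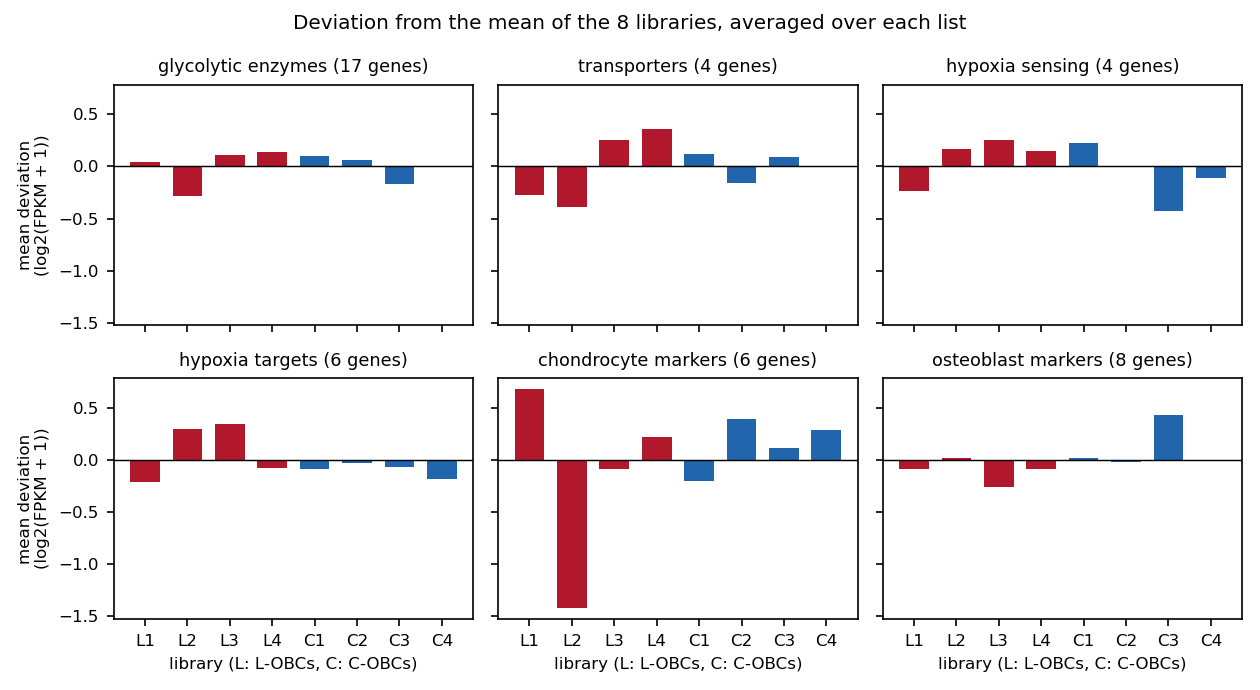
Deviation from the mean of the 8 libraries in log2(FPKM + 1) (y axis), averaged over 4 member groups and 2 marker lists, by library (x axis; L1 to L4 are L-OBCs, C1 to C4 are C-OBCs). Enzymes are lowest in L2 (-0.28) and C3 (-0.17), and cartilage markers are lowest in L2 (-1.42).

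Beyond the members, 99 further genes of the same pathways were read from the table and 82 were tested. None passed the adjusted threshold of limma. Unadjusted, 1 was higher and 7 were lower at p under 0.05, against 2.49% and 4.13% of all genes. Of 21 other genes of glycolysis and glucose entry, 8 were positive and 13 negative with a median of -0.08. All 11 genes of the pyruvate dehydrogenase complex and its regulators were tested, with 3 positive, 8 negative and a median of -0.09. The 7 tested genes of the pentose phosphate pathway had a median of -0.08, and the 7 further sensing genes, such as Arnt and Vhl, one of 0.11. Of 37 other hypoxia response genes, 9 were positive and 28 negative with a median of -0.18, and 4 were lower at an unadjusted p under 0.05. The groups did not overlap in 1 gene with all L-OBCs above and 4 with all below, against 0.954% and 2.90% of all genes tested.

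Slc2a12, a glucose transporter of the GLUT family, stood at 4.47, 4.78, 4.21 and 4.56 FPKM in L-OBCs and at 3.67, 1.96, 4.07 and 2.14 FPKM in C-OBCs (log2 fold change 0.51, SE 0.22, limma adjusted p = 0.695). Plod2, a collagen lysyl hydroxylase that HIF is known to raise, stood at 42.58, 39.99, 38.84 and 49.44 FPKM in L-OBCs and at 80.23, 96.26, 68.91 and 76.07 FPKM in C-OBCs (log2 fold change -0.89, SE 0.17, limma adjusted p = 0.314). Bpgm, which makes 2,3-bisphosphoglycerate from a glycolytic intermediate, averaged 31.4 ± 3.79 FPKM in L-OBCs and 41.8 ± 5.55 FPKM in C-OBCs (log2 fold change -0.40, SE 0.17, limma adjusted p = 0.695).

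A log2 ratio of L-OBCs over C-OBCs is also listed in the authors' deposited table, with no method stated. Its sign matched that of the limma value for 32 of the 34 members tested, and for 10536 of all 11214 genes tested (94.0%). The exceptions among the members were Slc16a3 and Pfkp, at 0.05 and -0.04 in the authors' deposited table. It gave 1.65 for Car9, 0.74 for Ankrd37, 0.53 for Epas1, 0.51 for Ndrg1 and -0.44 for Hk2, and between -0.23 and 0.35 for the remaining 30.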

How the data were processed

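Osteoblastic cells of 4 leukemic (L-OBCs) and 4 healthy (C-OBCs) samples were grouped by the labels' titles. The authors deposited FPKM per library for 17068 genes, group mean FPKM and a log2 ratio, per the file headers. The build GRCm38.p6 and the tools RSEM 1.2.8, Bowtie2 2.2.5, HISAT2 2.0.4 and DESeq2 are named, with no roles or settings, per the submitters' processing notes. Summed FPKM differs between libraries, so that scaling can move small differences, the kit does not mark strand, and reads of near-identical copies can be shared: 9 members had at least 1 other gene with at least 50% of its 31-base subsequences in common (43 for Gapdh).

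Values were analysed as log2(FPKM + 1) for the 11214 genes that reached 1 FPKM in 4 or more libraries. L-OBCs were compared with C-OBCs by limma 3.58.1 (R 4.3.3, trended variances, no covariates, two-sided, Benjamini-Hochberg over all genes tested at 0.05), a step first tested on simulated data. A count model was not used, since FPKM is not a count. Positions and promoters are from RefSeq, lengths from GENCODE M21 (99.1% of genes tested). Members and lists were chosen with earlier results of these data known. Values in every library are given for the member of highest level in each role and for members under the filter, by rule, and for the other members so shown after their values were seen. Further pathway genes were named, up to 2 per direction, by smallest p among those whose groups did not overlap. Of these lists 5 genes had no row used here. Alternatives were 2 pseudocounts, no filter, 2 scalings, array weights, removal of the length trend (lowess, span 0.3), the replicate block, and leaving out libraries.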

Additional observations from a re-analysis of the deposited data

Results flagged for a closer look

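The gap of 1 library to the nearest of its group of 4 exceeded Dixon's 95% critical share of the group's range in 4 of 70 member groups, and chance flags about 1 in 20. Egln3 was at 0.15 FPKM in C-OBC library 3 (gap 0.85 of the range). Pgk1 was at 102.9 FPKM in C-OBC library 3 (0.841), the library that was lowest for 9 of the 24 glycolysis genes, Pgk1 included. Hk2 was at 12.1 FPKM in L-OBC library 1 (0.858). Pfkl was at 35.27 FPKM in C-OBC library 2 (0.847).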

How the results depend on the processing

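No member passed the adjusted threshold of limma under any of the 18 alternatives, and the count of members past it was 0 in each. Genes of the whole table passed in small numbers, all higher in L-OBCs: 1 without the filter, 2 with totals rescaled to TPM, 6 with array weights, 4 with the length trend removed, 1 with the replicate block and the length trend removed, and 0 to 2 when 1 library was left out (2 without L-OBC library 4). At an unadjusted p under 0.05, the members called numbered 4 with array weights (Ldhb, Epas1, Ankrd37, Ndrg1), 2 with the length trend removed (Epas1, Ndrg1) and 0 to 2 in the other settings. Of the 11214 genes tested, 680 higher and 864 lower were called at that p with array weights. With the length trend removed, these counts were 398 and 423. The median of the glycolysis genes ran from -0.08 to 0.15 and that of the hypoxia genes from -0.02 to 0.30 over the settings. With totals rescaled to TPM the median of all genes moved to -0.146, and relative to it the glycolysis median was 0.06 and the hypoxia median 0.13. The replicate numbers of the labels were not taken as a pairing, because the labels state none. The correlation of deviations between same-numbered libraries was 0.122, -0.047, -0.072 and 0.220, and libraries 1 and 4 correlated best with their own number. Under the replicate block 0 members and 0 genes passed the adjusted threshold, and 633 higher and 405 lower genes had an unadjusted p under 0.05. Unknown depth limits what low members such as Car9, Eno2 and Aldoc can show.

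The sign changed in 70 of 612 member values, none of them past the threshold and the cause not tested. Among the members concerned, Egln3 had the highest value with all libraries (0.54). With totals rescaled to TPM these were Slc2a1 at -0.03, Slc2a3 at -0.04, Pfkl at -0.06, Pfkm at -0.09, Pfkp at -0.07, Tpi1 at -0.02, Gapdh at -0.10, Pgk1 at -0.13, Pfkfb3 at -0.05, Bnip3 at -0.12, Adm at -0.06. With median-of-ratios scaling they were Pfkfb4 at 0.01, and with array weights Slc16a3 at 0.12, Pfkm at -0.15, Aldoa at 0.02, Pgk1 at -0.01. With the length trend removed, alone or with the replicate block, they were Gapdh at -0.09, Pfkfb4 at 0.05, Adm at -0.02. Without L-OBC libraries 1 and 2 they were Slc16a1 at 0.00, Slc16a3 at 0.51, Pfkm at -0.12, Aldoa at 0.06, Pgam1 at 0.07, Eno1 at 0.13, Pkm at 0.24, Ldha at 0.01, Pfkfb4 at 0.12, Hif1a at 0.28. When each library was left out in turn, values ran for Slc2a1 from -0.02 to 0.31, Slc2a3 from -0.16 to 0.33, Slc16a3 from -0.35 to 0.26, Hk1 from -0.03 to 0.47, Pfkl from -0.06 to 0.31, Pfkm from -0.04 to 0.12, Pfkp from -0.30 to 0.23. They ran likewise for Aldoc from -0.02 to 0.44, Gapdh from -0.08 to 0.12, Pgk1 from -0.14 to 0.06, Eno1 from -0.16 to 0.07, Eno2 from -0.05 to 0.27, Pkm from -0.27 to 0.11, Pfkfb3 from -0.10 to 0.18. The remaining ranges were Pfkfb4 from -0.10 to 0.11, Hif1a from -0.44 to 0.12, Egln3 from -0.23 to 0.82, Bnip3 from -0.08 to 0.14, Adm from -0.09 to 0.34.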
